A study of Mus musculus with 12 samples.

Results

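*Grb10* and 4 genes that lie next to it on mouse chromosome 11 (*Ddc*, *Fignl1*, *Ikzf1* and *Cobl*) were followed through the RNA-seq libraries of 3 mouse embryonic stem cell (ESC) lines. These are 5 of the 50978 genes in the deposited expression table. *Grb10* was chosen because its mRNA level was very low in one of the lines, so its own levels and differences are given as a description and carry no test. The neighbours were chosen by position, and the question was whether the loss of *Grb10* mRNA extends to them. Of the 5 genes, 4 were expressed enough to enter the fit across 12914 genes, and *Ikzf1* was not.

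PRAMEL7 is a leucine-rich repeat protein of the early embryo that can act as the substrate receptor of a CUL2 ubiquitin ligase. Parental ESCs were wild-type E14 cells grown in medium with 15% serum and LIF, a cytokine that sustains pluripotency, and both derived lines were made from ESCs kept in the same medium. ESC + H/F-PRAMEL7WT carried an HA/FLAG-tagged full-length *Pramel7* sequence, and ESC + H/F-PRAMEL7ΔN carried the same tagged sequence without a short stretch at the N-terminus, the end that holds its Cul2 and BC boxes. The sources differ on the length of that stretch. In both derived lines the sequence had been placed at the *Rosa26* locus with Cas9, was driven by the strong and ubiquitous CAG promoter, and was carried in cells grown from single clones. Each line may therefore be 1 clone, and an effect of the inserted sequence and a feature of the clone cannot be told apart. There were 2 libraries per line, from separate dishes of cells, so every test measures the spread between dishes of a line. Library totals were 18255101 to 19856196 reads on genes. Levels are given as CPM, the reads of a gene on a per-million scale, derived from the deposited RPKM values. The authors' scaling between libraries was kept, so the libraries were not brought to one fixed total.

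The *Pramel7* values set both derived lines apart from parental ESCs, as labelled. Sums over the gene cannot show which derived line carries the truncated sequence. *Pramel7* had 0.258 and 0.217 CPM in the parental libraries, 51.2 and 46.2 in ESC + H/F-PRAMEL7WT, and 398 and 431 in ESC + H/F-PRAMEL7ΔN. By the labels the truncated sequence was the more abundant one, and reads of the insert and of the endogenous gene cannot be told apart. The 8 markers of pluripotent stem cells, among them *Pou5f1*, *Nanog* and *Zfp42*, together reached 5066 to 6112 CPM over the 6 libraries, with 3 called lower and 1 higher in ESC + H/F-PRAMEL7WT (over all tested genes 16.3% and 8.71%) and 0 lower and 1 higher in ESC + H/F-PRAMEL7ΔN (over all tested genes 13.6% and 6.25%). Markers of monoamine neurons summed to 0.557 to 1.75 CPM, those of blood cells to 11.04 to 16.46 and those of primitive and visceral endoderm to 6.84 to 13.7. In ESC + H/F-PRAMEL7WT 1 of the 3 tested blood markers was lower and 1 higher, and 2 of the 4 tested endoderm markers were higher. In ESC + H/F-PRAMEL7ΔN 1 blood marker and 1 endoderm marker were higher and none was lower. Between the derived lines, 4 of the 8 pluripotency markers were lower in ESC + H/F-PRAMEL7WT and 0 higher. Of the 3 tested blood markers 1 was lower there and 0 higher, and no tested endoderm marker passed. Over all tested genes 9.45% were lower and 10.9% higher in that comparison. Among the markers of monoamine neurons, *Fev*, *Th*, *Slc6a3* and *Slc6a4* had no read in at least 2 libraries. *Tph2*, *Pitx3* and *Slc18a2* had at least 1 read in every library.

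GRB10 is an adaptor protein that binds activated insulin and IGF1 receptors through its SH2 and BPS domains and damps their signal, and it is itself a phosphorylation target of mTORC1. Its gene is imprinted. Most mouse tissues transcribe it from the maternal chromosome, and neurons transcribe it from the paternal chromosome using other start sites. *Ddc* encodes the aromatic L-amino acid decarboxylase that makes dopamine and serotonin, and one of its transcripts is imprinted in the embryonic heart. *Cobl* encodes cordon-bleu, which nucleates actin filaments. *Fignl1* encodes an AAA ATPase that acts in homologous recombination, and *Ikzf1* encodes IKAROS, a zinc finger transcription factor of lymphoid cells.

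In the GRCm38 build (mm10) the order along chromosome 11 was *Ikzf1* (chr11:11685003-11772926, plus strand), *Fignl1* (chr11:11787431-11808962, minus), *Ddc* (chr11:11814101-11898144, minus), *Grb10* (chr11:11930508-12038683, minus) and *Cobl* (chr11:12236608-12464960, minus). The gap to *Grb10* was 32.4 kb for *Ddc*, 122 kb for *Fignl1*, 158 kb for *Ikzf1* and 198 kb for *Cobl*. All 5 had entries in the RefSeq promoter set for GRCm38.p6, which covers 250 bases before and 50 bases after a transcription start. *Grb10* has 2 starts in that set, 9.45 kb apart, and *Ikzf1*, *Ddc* and *Cobl* also have a second start there. The RNA values are sums over a gene and cannot separate these starts, nor the maternal from the paternal allele.

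The promoter windows of *Grb10*, the gene whose mRNA was nearly lost, are printed with those of its closest neighbour on each side. Each is 300 bases, read 5′ to 3′ on the minus strand of chromosome 11, and capitals mark the dinucleotide CG, at which mammalian DNA is methylated and which reads the same on both strands.

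*Grb10*, upstream start, chr11:12037371-12037670: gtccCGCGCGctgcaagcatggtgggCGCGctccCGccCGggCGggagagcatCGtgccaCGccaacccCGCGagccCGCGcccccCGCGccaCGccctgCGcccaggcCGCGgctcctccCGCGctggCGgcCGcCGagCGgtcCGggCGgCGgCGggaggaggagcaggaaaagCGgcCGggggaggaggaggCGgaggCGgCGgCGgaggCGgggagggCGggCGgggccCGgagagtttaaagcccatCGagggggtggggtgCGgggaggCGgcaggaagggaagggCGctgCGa

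*Grb10*, internal start, chr11:12027922-12028221: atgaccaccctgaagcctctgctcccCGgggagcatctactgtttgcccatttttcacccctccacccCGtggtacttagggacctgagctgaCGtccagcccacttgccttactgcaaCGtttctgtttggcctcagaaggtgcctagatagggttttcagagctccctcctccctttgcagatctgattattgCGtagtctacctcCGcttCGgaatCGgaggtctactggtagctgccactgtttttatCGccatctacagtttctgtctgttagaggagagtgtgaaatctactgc

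*Ddc*, upstream start, chr11:11898095-11898394: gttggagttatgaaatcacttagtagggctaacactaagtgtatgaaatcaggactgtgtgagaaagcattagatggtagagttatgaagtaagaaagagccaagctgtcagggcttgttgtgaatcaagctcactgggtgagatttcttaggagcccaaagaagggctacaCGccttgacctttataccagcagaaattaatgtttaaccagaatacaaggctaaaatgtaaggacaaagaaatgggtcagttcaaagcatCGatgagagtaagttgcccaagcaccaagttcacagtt

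*Cobl*, upstream start, chr11:12464911-12465210: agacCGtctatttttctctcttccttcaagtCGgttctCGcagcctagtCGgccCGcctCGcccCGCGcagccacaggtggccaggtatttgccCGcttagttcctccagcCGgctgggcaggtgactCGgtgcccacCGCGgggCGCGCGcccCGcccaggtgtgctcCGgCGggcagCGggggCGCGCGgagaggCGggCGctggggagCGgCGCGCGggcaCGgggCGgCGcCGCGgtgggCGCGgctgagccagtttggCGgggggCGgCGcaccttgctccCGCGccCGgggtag

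The upstream *Grb10* window held 45 CG, and 1.93% of the 32851 windows of this length held at least as many. The internal *Grb10* window held 9, which 45.8% of windows reached. *Cobl* held 42 CG at its upstream start, and 3.03% of windows reached that count. The *Ddc* window held 2, a count reached by 85.9% of windows. A CG is common, since 94.6% of windows held one and the median was 7. The upstream starts of *Grb10* and *Cobl* were thus alike in CG content, and the internal start of *Grb10* was unlike both. The second start of *Cobl*, whose sequence is not printed, held 0 CG, a count reached by 100% of windows. That of *Ddc* held 5, reached by 62.0%. A second start with fewer CG than the upstream one was thus not particular to *Grb10*. The RNA libraries do not measure DNA methylation, and a link between CG content and RNA level was not tested.

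*Grb10* mRNA reached 678.8 and 532.0 CPM in the parental libraries, from 13155 and 9810 reads. ESC + H/F-PRAMEL7WT had it at 29.66 and 28.68 CPM, from 586 and 521 reads. ESC + H/F-PRAMEL7ΔN had it at 620.6 and 627.5 CPM, from 12365 and 11886 reads. Both libraries of ESC + H/F-PRAMEL7WT lay far below every other library, and those of ESC + H/F-PRAMEL7ΔN lay between the parental ones. The means were 605.4 ± 103.8 CPM (SD, n = 2) in parental ESCs, 29.17 ± 0.693 (SD, n = 2) in ESC + H/F-PRAMEL7WT and 624.0 ± 4.87 (SD, n = 2) in ESC + H/F-PRAMEL7ΔN, so that 4.82% of the parental level was left in ESC + H/F-PRAMEL7WT. On the log2(CPM + 1) scale, which is used for all differences below, ESC + H/F-PRAMEL7WT differed from parental ESCs by -4.32 and from ESC + H/F-PRAMEL7ΔN by -4.37, and ESC + H/F-PRAMEL7ΔN differed from parental ESCs by 0.05. By size, the difference from parental ESCs was the largest fall among the 12914 genes, ahead of *Usp26* at -2.92. Per kilobase of exon, *Grb10* stood at the 93.9th percentile of tested genes in parental ESCs, at the 40.1st in ESC + H/F-PRAMEL7WT and at the 94.1st in ESC + H/F-PRAMEL7ΔN. The remaining 1107 reads in ESC + H/F-PRAMEL7WT were well above detection, and fewer cells with *Grb10* mRNA and less of it in every cell cannot be told apart in bulk RNA.

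Genes listed as markers of fibroblasts were also followed, in cells that the paper grew without a feeder layer. The 6 markers summed to 41.9 and 55.6 CPM in the parental libraries, 21.1 and 22.4 in ESC + H/F-PRAMEL7WT, and 43.7 and 38.8 in ESC + H/F-PRAMEL7ΔN. *Thy1* made up most of each sum, *Col1a1* averaged 2.05, 0.476 and 0.923 CPM in the same order, and *Dcn* had no read in any library. *Col3a1* and *Postn* had 1 and 3 reads over all libraries, and *Col1a2* averaged 0.631, 0.214 and 0.205 CPM. The sums thus mostly reflect *Thy1* and do not show that fibroblasts were present. Over all tested genes 16.3% were lower in ESC + H/F-PRAMEL7WT. *Thy1* and *Col1a1* were the 2 markers that could be tested, and both passed as lower in that line (log2 differences -1.08 and -1.02, adjusted p = 0.00147 and 0.0109 from limma). Their part in the difference of *Grb10* was not tested.

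**Figure D1:**
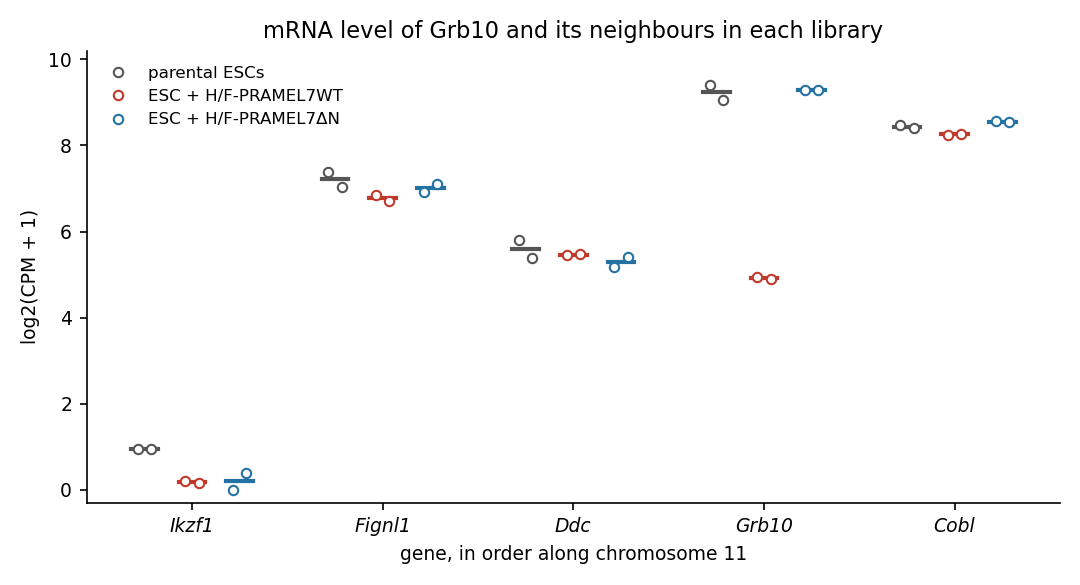
mRNA level of the 5 genes in each library, as log2(CPM + 1) on the vertical axis, with genes in chromosomal order on the horizontal axis. Open circles are libraries and bars are means of 2 libraries. The *Grb10* circles of ESC + H/F-PRAMEL7WT (29.66 and 28.68 CPM) stand far below the other 4, while the circles of *Fignl1*, *Ddc* and *Cobl* lie close together in all 3 lines.

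None of the 3 expressed neighbours shared the loss. In the comparison of ESC + H/F-PRAMEL7WT with parental ESCs, *Fignl1* was lower past the test, and *Ddc* and *Cobl* were not. The test was limma on log2(CPM + 1) with Benjamini-Hochberg adjustment over 12914 genes, and a gene was called at an adjusted p under 0.05. In this comparison 16.3% of all tested genes were called lower and 8.71% higher, so that 1 neighbour of 3 called lower has to be read against that background.

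*Fignl1* had 167.2 and 131.0 CPM in the parental libraries, 114.2 and 103.2 in ESC + H/F-PRAMEL7WT, and 119.6 and 136.6 in ESC + H/F-PRAMEL7ΔN. Both libraries of ESC + H/F-PRAMEL7WT were below both parental libraries, and those of ESC + H/F-PRAMEL7ΔN overlapped them. The difference between ESC + H/F-PRAMEL7WT and parental ESCs was -0.44 (standard error 0.126, 95% interval -0.73 to -0.16, adjusted p = 0.0309 from limma), from 149.1 ± 25.6 CPM (SD, n = 2) to 108.7 ± 7.80 (SD, n = 2). For ESC + H/F-PRAMEL7ΔN it was -0.21 (-0.49 to 0.07, adjusted p = 0.283), and between the derived lines -0.23 (-0.52 to 0.05, adjusted p = 0.216). Without the first parental library the difference between ESC + H/F-PRAMEL7WT and parental ESCs was -0.27. It was -0.52 and -0.37 without the first or the second library of ESC + H/F-PRAMEL7WT. The call was lost in these fits, but a line left with 1 library gives a weaker test. The loss thus does not show that the call rested on a given library. Without the second parental library the difference from parental ESCs was -0.62 in ESC + H/F-PRAMEL7WT and -0.39 in ESC + H/F-PRAMEL7ΔN. Between the derived lines *Fignl1* passed without the first or the second parental library (adjusted p = 0.0369 and 0.0365).

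*Ddc*, the gene closest to *Grb10*, had 54.54 and 41.06 CPM in the parental libraries, 42.78 and 43.28 in ESC + H/F-PRAMEL7WT, and 35.33 and 41.65 in ESC + H/F-PRAMEL7ΔN. The libraries of ESC + H/F-PRAMEL7WT fell within the parental range, and one of ESC + H/F-PRAMEL7ΔN did as well. The difference from parental ESCs was -0.13 in ESC + H/F-PRAMEL7WT (95% interval -0.45 to 0.18, adjusted p = 0.512 from limma) and -0.30 in ESC + H/F-PRAMEL7ΔN (-0.61 to 0.02, adjusted p = 0.181). Between the derived lines it was 0.16 (-0.16 to 0.48, adjusted p = 0.446). The size of both differences from parental ESCs depended on the parental library kept. Without the second parental library they were -0.34 in ESC + H/F-PRAMEL7WT and -0.50 in ESC + H/F-PRAMEL7ΔN. Without the first they were 0.066 and -0.095. The antisense transcript *1700042O10Rik* lies inside the span of *Ddc*. The library kit does not mark strand, so reads where they overlap cannot be told apart. It had 4.59 and 3.96 CPM in the parental libraries, 3.70 and 3.47 in ESC + H/F-PRAMEL7WT, and 2.36 and 4.28 in ESC + H/F-PRAMEL7ΔN.

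*Cobl*, on the other side of *Grb10*, had 356.6 and 335.6 CPM in the parental libraries, 302.5 and 308.1 in ESC + H/F-PRAMEL7WT, and 375.6 and 373.2 in ESC + H/F-PRAMEL7ΔN. The 3 lines did not overlap, with ESC + H/F-PRAMEL7WT lowest and ESC + H/F-PRAMEL7ΔN highest. Against parental ESCs the difference was -0.18 in ESC + H/F-PRAMEL7WT (standard error 0.0788, 95% interval -0.36 to -0.0031, adjusted p = 0.12 from limma) and 0.11 in ESC + H/F-PRAMEL7ΔN (-0.06 to 0.29, adjusted p = 0.354). Neither passed. The derived lines differed from each other by -0.29 (-0.47 to -0.12, adjusted p = 0.0284), with 305.3 ± 3.99 CPM (SD, n = 2) in ESC + H/F-PRAMEL7WT and 374.4 ± 1.65 (SD, n = 2) in ESC + H/F-PRAMEL7ΔN. In that comparison 9.45% of tested genes were called lower and 10.9% higher, and *Cobl* was the one neighbour of 3 that was called. That call was lost without any one of the 4 libraries compared, with adjusted p from 0.128 to 0.201 and differences from -0.31 to -0.28. In the comparison of ESC + H/F-PRAMEL7ΔN with parental ESCs, in which 13.6% of tested genes were called lower and 6.25% higher, none of the 3 neighbours was called.

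*Ikzf1* was close to silent in all lines. It had 18 and 17 reads in the parental libraries, 3 and 2 in ESC + H/F-PRAMEL7WT, and 0 and 6 in ESC + H/F-PRAMEL7ΔN. Summed over a line this is 0.925 CPM in parental ESCs (exact 95% Poisson interval 0.644 to 1.29), 0.131 in ESC + H/F-PRAMEL7WT (0.0426 to 0.306) and 0.155 in ESC + H/F-PRAMEL7ΔN (0.0569 to 0.338). The intervals cover counting error only. The parental libraries were above all 4 libraries of the derived lines, and *Grb10* and *Ikzf1* thus differed in ESC + H/F-PRAMEL7ΔN, where *Grb10* was at the parental level. No test was made, because *Ikzf1* did not exceed 1 CPM in 2 libraries. The blood markers were at mixed levels. *Ptprc*, which encodes CD45, had 0.206 CPM at most and *Hbb-bh1* had no read, while *Cd34*, *Gata1* and *Tal1* were expressed enough to be tested. *Cd34* averaged 7.65 CPM in parental ESCs, 3.21 in ESC + H/F-PRAMEL7WT and 5.62 in ESC + H/F-PRAMEL7ΔN, and was lower in ESC + H/F-PRAMEL7WT (-1.04, adjusted p = 0.00385 from limma) but not past the test in ESC + H/F-PRAMEL7ΔN (-0.38, adjusted p = 0.158). *Tal1*, a transcription factor of blood precursors, averaged 1.31, 3.36 and 5.18 CPM and was higher in both derived lines (0.93 and 1.43, adjusted p = 0.00917 and 0.00125). *Gata1* averaged 2.98, 2.81 and 3.53 CPM and passed in neither line. The part of these differences in the level of *Ikzf1* was not tested.

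Levels per kilobase of exon place the genes on one scale. In parental ESCs the order was *Grb10* (66.6 ± 11.4 CPM per kb, SD, n = 2), *Cobl* (42.5 ± 1.82), *Fignl1* (30.8 ± 5.29), *Ddc* (10.7 ± 2.14) and *Ikzf1* (0.160). No neighbours in that order overlapped in their libraries. In ESC + H/F-PRAMEL7WT *Grb10* had 3.21 CPM per kb and stood behind *Cobl* (37.5), *Fignl1* (22.5) and *Ddc* (9.65). In ESC + H/F-PRAMEL7ΔN the parental order was kept, with *Grb10* at 68.7 and *Cobl* at 46.0.

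Ratios within a library do not depend on the scaling between libraries. For each read of *Cobl* there were 1.903 and 1.585 reads of *Grb10* in the parental libraries, 0.0981 and 0.0931 in ESC + H/F-PRAMEL7WT, and 1.65 and 1.68 in ESC + H/F-PRAMEL7ΔN. For each read of *Fignl1* there were 4.06 and 4.06 reads of *Grb10* in the parental libraries, 0.260 and 0.278 in ESC + H/F-PRAMEL7WT, and 5.19 and 4.59 in ESC + H/F-PRAMEL7ΔN. For each read of *Ddc* the ratios were 12.45 and 12.96, 0.693 and 0.663, and 17.6 and 15.1. By each neighbour as reference, the libraries of ESC + H/F-PRAMEL7WT stood apart.

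The region around these genes is sparse. Annotated protein-coding genes between *Abca13*, 2.25 Mb on the *Ikzf1* side, and *Vstm2a*, 4.22 Mb on the *Cobl* side, that are not among the 5 were *Vwc2*, *Zpbp*, *4930512M02Rik* and *Pom121l12*. *Zpbp*, a gene of sperm, had 5 to 10 reads per library. *Vwc2* had at most 2 reads, and *4930512M02Rik* and *Pom121l12* had none. Silent genes of this kind could not show a loss.

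Apart from *Grb10*, 15 genes within 5 Mb were tested. Of these, ESC + H/F-PRAMEL7WT had 5 called lower (33.3%) and 2 called higher (13.3%) in the comparison with the parental line, beside 16.3% and 8.71% of all tested genes and 45.8% and 3.36% of the other tested genes of chromosome 11. The 5 were *Fignl1*, *Igfbp3* (-0.77), which encodes a carrier of IGFs in serum, *Tns3* (-0.55), a focal adhesion protein, *Hus1* (-0.71), a subunit of the 9-1-1 DNA damage clamp, and the pseudogene *Gm12663* (-0.87). *Upp1*, a uridine phosphorylase, was higher by 0.31 and the adenylyl cyclase gene *Adcy1* by 0.62. Of the genes called, *Fignl1* was the one within 2 Mb, and *Upp1* followed at 2.79 Mb.

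In ESC + H/F-PRAMEL7ΔN *Igfbp3* was lower (-0.79, adjusted p = 0.00533 from limma) and *Adcy1* higher (0.54, adjusted p = 0.0188), as they were in ESC + H/F-PRAMEL7WT. Each was 6.67% of the 15 genes, beside 13.6% lower and 6.25% higher over all tested genes. The derived lines differed in *Cobl*, *Tns3* (-0.66, adjusted p = 0.00112), *Hus1* (-0.42, adjusted p = 0.0147) and *Upp1* (0.44, adjusted p = 0.00439). That is 20.0% of the 15 genes lower and 6.67% higher, beside 9.45% and 10.9% of all tested genes. *Tns3* had 501.4 and 452.7 CPM in the parental libraries, 328.1 and 320.5 in ESC + H/F-PRAMEL7WT, and 532.8 and 491.6 in ESC + H/F-PRAMEL7ΔN. *Igfbp3* had 12.44 and 11.5 CPM in the parental libraries, 7.036 and 6.166 in ESC + H/F-PRAMEL7WT, and 6.424 and 6.599 in ESC + H/F-PRAMEL7ΔN. *Tns3* was thus low in ESC + H/F-PRAMEL7WT and *Igfbp3* in both derived lines. Both comparisons with parental ESCs share the same parental libraries. The counts against parental ESCs in ESC + H/F-PRAMEL7WT dropped to 3 lower and 0 higher without its first library and to 2 lower and 0 higher without its second. Those in ESC + H/F-PRAMEL7ΔN dropped to 0 and 0 without its first library and to 1 and 0 without its second, and rose to 2 and 3 lower without the first and the second parental library. With the derived lines compared directly, 1 gene was called lower and 0 higher without the first or the second library of ESC + H/F-PRAMEL7WT or the second of ESC + H/F-PRAMEL7ΔN, and 2 lower and 1 higher without the first of ESC + H/F-PRAMEL7ΔN.

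**Figure D2:**
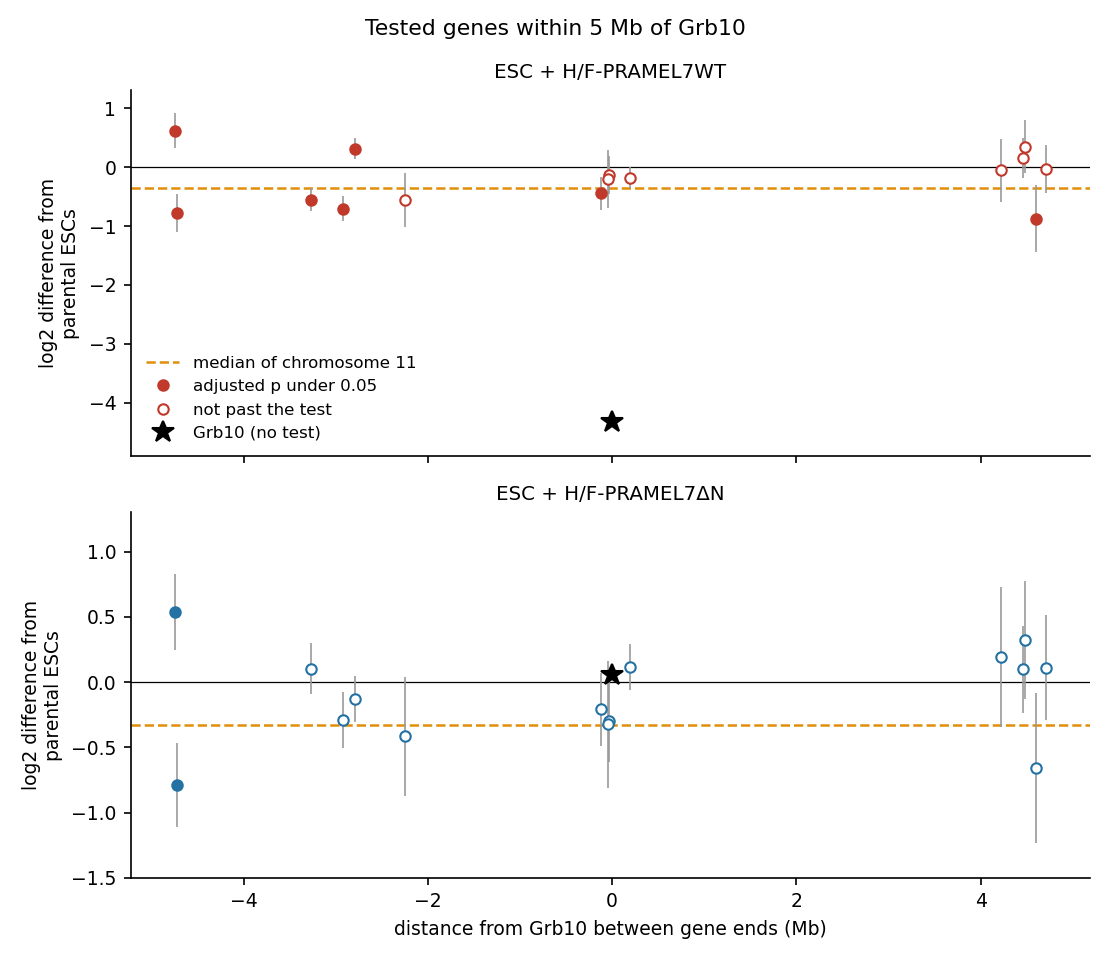
Log2 difference from parental ESCs on the vertical axes for tested genes within 5 Mb of *Grb10*, against the distance between gene ends in Mb, for ESC + H/F-PRAMEL7WT (top) and ESC + H/F-PRAMEL7ΔN (bottom), whose vertical scales differ. Filled circles passed the test, grey lines are 95% intervals, the star is *Grb10* and the dashed line is the median of chromosome 11. The star stands at -4.32 in the top panel and at 0.05 in the bottom panel, and the next lowest gene of the top panel, *Gm12663*, at -0.87.

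Chromosome 11 as a whole was lower in both derived lines, which bears on every neighbour. Of its 1101 tested genes other than *Grb10*, 504 were lower in ESC + H/F-PRAMEL7WT (45.8%) and 37 higher, against 13.6% lower among genes on other chromosomes. ESC + H/F-PRAMEL7ΔN had 433 that were lower (39.3%) and 27 higher, against 11.2% lower elsewhere. The median difference was -0.36 in ESC + H/F-PRAMEL7WT and -0.33 in ESC + H/F-PRAMEL7ΔN, against -0.054 and -0.038 for genes outside chromosome 11. Between the derived lines the median of chromosome 11 was -0.042, with 102 genes lower and 86 higher. In windows of 10 Mb along the chromosome the medians ranged from -0.50 to -0.27 in ESC + H/F-PRAMEL7WT and from -0.40 to -0.25 in ESC + H/F-PRAMEL7ΔN, so the difference was spread over the chromosome. Medians of the other autosomes ranged from -0.26 to 0.031 in ESC + H/F-PRAMEL7WT and from -0.075 to 0.25 in ESC + H/F-PRAMEL7ΔN. Chromosome 6 was the lowest in the former and the highest in the latter, with -0.39 between the derived lines. It holds *Met*, *Ret*, *Nanog*, *Dppa3* and *Emp1*, which are named in other paragraphs. The counts of lower genes fell when a library of the derived line compared was left out, where a line with 1 library gives a weaker test. The ESC + H/F-PRAMEL7ΔN counts were 272 and 270 without the first or second library of ESC + H/F-PRAMEL7WT. Between the derived lines the counts ranged from 22 to 196 lower and from 19 to 156 higher. The medians moved less, with a range from -0.38 to -0.34 in ESC + H/F-PRAMEL7WT and from -0.34 to -0.31 in ESC + H/F-PRAMEL7ΔN over the libraries left out.

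Set against that background, *Fignl1* was not low. In ESC + H/F-PRAMEL7WT 40.7% of the tested genes of chromosome 11 had a lower value than *Fignl1*, 76.7% than *Ddc* and 71.8% than *Cobl*. Relative to the median of chromosome 11, *Fignl1* differed from parental ESCs by -0.082 in ESC + H/F-PRAMEL7WT (adjusted p = 0.652 from limma) and the call was gone. *Ddc* stood at 0.23 (adjusted p = 0.243) and *Cobl* at 0.18 (adjusted p = 0.107) in ESC + H/F-PRAMEL7WT, both above the median of the chromosome. In ESC + H/F-PRAMEL7ΔN *Cobl* stood 0.45 above that median (adjusted p = 0.00357), *Fignl1* 0.13 and *Ddc* 0.040. *Grb10* stood at -3.96 in ESC + H/F-PRAMEL7WT and 0.39 in ESC + H/F-PRAMEL7ΔN on the same footing. The direction of *Ddc* and *Cobl* in ESC + H/F-PRAMEL7WT and of *Fignl1* and *Ddc* in ESC + H/F-PRAMEL7ΔN was thus negative or positive depending on whether all genes or chromosome 11 served as reference. The 15 genes within 5 Mb had a median of -0.18 in ESC + H/F-PRAMEL7WT and -0.13 in ESC + H/F-PRAMEL7ΔN, less negative than the chromosome, and the 111 within 10 Mb had -0.34 and -0.32. Without the second parental library the median of the 15 genes in ESC + H/F-PRAMEL7WT was -0.32, beside -0.34 for the chromosome.

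**Figure D3:**
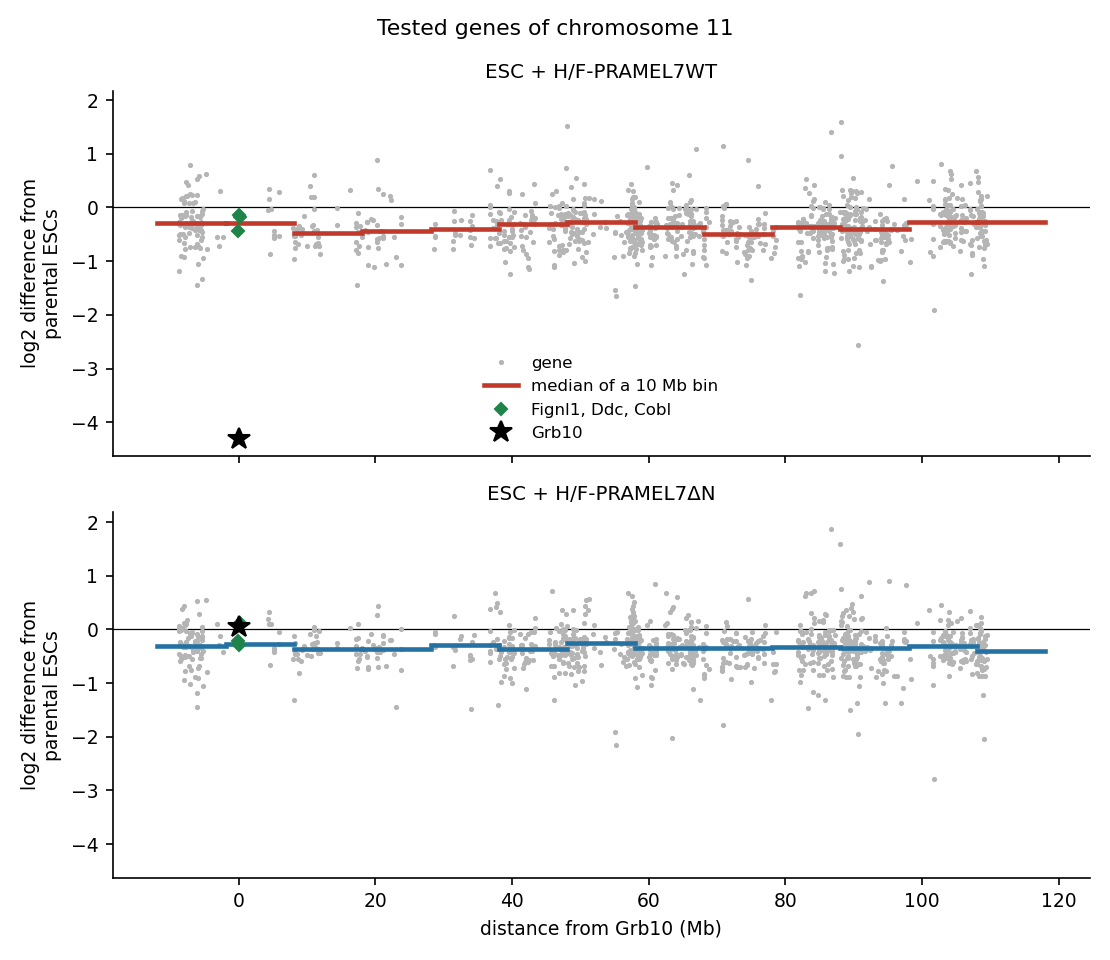
Log2 difference from parental ESCs for all 1102 tested genes of chromosome 11 against the distance from *Grb10* in Mb, for ESC + H/F-PRAMEL7WT (top) and ESC + H/F-PRAMEL7ΔN (bottom). Grey points are genes, coloured bars are medians of 10 Mb bins, diamonds are *Fignl1*, *Ddc* and *Cobl*, and the star is *Grb10*. All bin medians lie below 0 in both lines (from -0.50 to -0.27 and from -0.40 to -0.25), the diamonds lie among the grey points, and the star lies far below them in the top panel.

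The partners of the GRB10 protein were then described, since an adaptor acts through the receptors it binds. The lists were receptors bound by GRB10, the insulin and IGF pathway, other protein partners, the GRB7 adaptor family, factors that keep imprints, and families and partners of the 4 neighbours. Besides *Grb10* they held 75 distinct genes, of which 62 were tested, *Fignl1*, *Ddc* and *Cobl* among them. ESC + H/F-PRAMEL7WT had 15 lower and 5 higher, against 16.3% and 8.71% of all tested genes, and their median was -0.10 against -0.078 for all genes. ESC + H/F-PRAMEL7ΔN had 8 lower and 5 higher, against 13.6% and 6.25% of all tested genes, and the median was -0.056 against -0.057. With the derived lines compared directly, 9 were lower and 4 higher, against 9.45% and 10.9%.

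Receptors bound by GRB10 were lower in ESC + H/F-PRAMEL7WT for 5 of 7 and in ESC + H/F-PRAMEL7ΔN for 1 of 7, with medians of -0.66 and -0.18. Over all tested genes 16.3% and 13.6% were lower, so that the count in ESC + H/F-PRAMEL7ΔN is near its background. *Insr*, the insulin receptor, averaged 10.7 CPM in parental ESCs, 6.35 in ESC + H/F-PRAMEL7WT and 7.84 in ESC + H/F-PRAMEL7ΔN (log2 difference -0.66 in ESC + H/F-PRAMEL7WT, adjusted p = 0.0149 from limma, and -0.40 in ESC + H/F-PRAMEL7ΔN, adjusted p = 0.104). *Igf1r*, the IGF1 receptor, averaged 48.1, 26.1 and 41.7 CPM, was lower in ESC + H/F-PRAMEL7WT than in parental ESCs (-0.84, adjusted p = 0.00379) and lower in ESC + H/F-PRAMEL7WT than in ESC + H/F-PRAMEL7ΔN (-0.66, adjusted p = 0.0111). *Kit*, the receptor of stem cell factor, averaged 326, 186 and 172 CPM and was lower in both derived lines (-0.80 and -0.91). *Pdgfrb*, a PDGF receptor, had a log2 difference of -1.43 in ESC + H/F-PRAMEL7WT and *Met*, the HGF receptor, one of -0.57. In ESC + H/F-PRAMEL7ΔN their values were -0.46 and -0.057, which did not pass. *Ret* and *Egfr* passed in neither line. *Thy1* and *Col1a1* were lower in the same libraries of ESC + H/F-PRAMEL7WT, and their part in these differences was not tested.

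In the insulin and IGF pathway 6 of 14 tested genes were lower and 2 higher in ESC + H/F-PRAMEL7WT, and 3 lower and 2 higher in ESC + H/F-PRAMEL7ΔN, beside 16.3% and 8.71% of all tested genes in the former and 13.6% and 6.25% in the latter. *Akt1*, the kinase downstream of these receptors, rose in ESC + H/F-PRAMEL7WT (0.85, adjusted p = 0.00116 from limma) and was at 0.25 in ESC + H/F-PRAMEL7ΔN (adjusted p = 0.116). *Irs2*, which couples the receptors to PI3 kinase, rose by 0.77 in ESC + H/F-PRAMEL7WT (adjusted p = 0.0124). *Rps6kb1*, which encodes S6 kinase and lies on chromosome 11, fell in both lines (-0.69 and -0.64), as did *Rptor* (-0.30 and -0.44), also on chromosome 11. *Igf2r*, an imprinted gene for the receptor that clears IGF2, fell in both lines (-0.62 and -0.76). *Map2k1*, a kinase of the MAPK cascade, rose in ESC + H/F-PRAMEL7ΔN (0.34) and stood at -0.0098 in ESC + H/F-PRAMEL7WT. Transcripts of *Irs1*, *Igf1* and *Igf2* were too low to test.

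**Figure D4:**
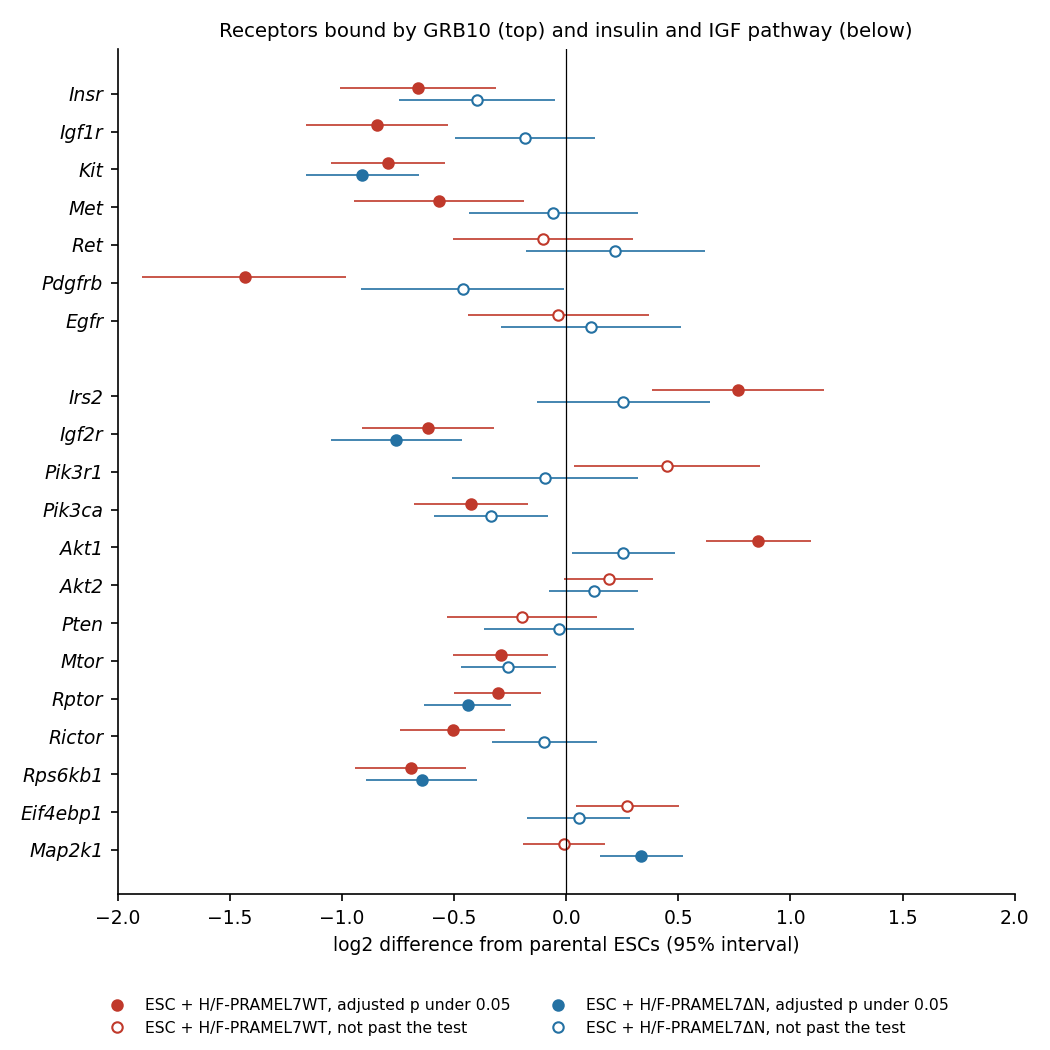
Log2 difference from parental ESCs on the horizontal axis, with 95% intervals, for the 7 receptors bound by GRB10 (top) and the tested genes of the insulin and IGF pathway that are named on the axis (below), in ESC + H/F-PRAMEL7WT (red) and ESC + H/F-PRAMEL7ΔN (blue). Filled circles passed the test. Filled red circles of receptors lie between -1.43 and -0.57, and *Akt1* and *Irs2* lie to the right of 0 at 0.85 and 0.77.

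The adaptors closest to *Grb10* were not altered in a like manner. *Grb7* averaged 103 CPM in parental ESCs, 106 in ESC + H/F-PRAMEL7WT and 101 in ESC + H/F-PRAMEL7ΔN, with a log2 difference of 0.05 in ESC + H/F-PRAMEL7WT (95% interval -0.19 to 0.29, adjusted p = 0.751 from limma). *Grb14* averaged 2.26, 1.27 and 0.997 CPM and passed as lower in ESC + H/F-PRAMEL7ΔN (-0.70, adjusted p = 0.0459) but not in ESC + H/F-PRAMEL7WT (-0.51, adjusted p = 0.107). Among other protein partners *Ywhae*, a 14-3-3 gene on chromosome 11, was lower in ESC + H/F-PRAMEL7WT (-0.28, adjusted p = 0.0366), and *Gigyf1*, *Gigyf2*, *Nedd4* and *Ywhaz* passed in neither line.

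Factors that establish or keep DNA methylation and imprints were mixed in direction. *Dppa3*, which protects maternal methylation in the zygote, averaged 11.8 CPM in parental ESCs, 1.898 in ESC + H/F-PRAMEL7WT and 0.977 in ESC + H/F-PRAMEL7ΔN, and was lower in both derived lines (-2.12 and -2.67). *Uhrf1*, which recruits DNMT1 to replicated DNA, was higher in both at the mRNA level (0.37 and 0.37). RNA does not give the level of the protein. The paper reports UHRF1 protein as strongly reduced in ESC + H/F-PRAMEL7WT and unaffected in ESC + H/F-PRAMEL7ΔN. It found no significant change of *Uhrf1* mRNA in ESC + H/F-PRAMEL7WT. *Dnmt3b*, a methyltransferase that sets new methylation, averaged 138, 255 and 113 CPM and rose in ESC + H/F-PRAMEL7WT (0.89, adjusted p = 0.00114 from limma), with -0.28 in ESC + H/F-PRAMEL7ΔN (adjusted p = 0.103). *Dnmt3a* averaged 91.3, 87.0 and 32.0 CPM and fell in ESC + H/F-PRAMEL7ΔN (-1.48, adjusted p = 1.92e-05), with -0.068 in ESC + H/F-PRAMEL7WT. *Zfp57*, a zinc finger protein that binds methylated imprinting control regions, rose in ESC + H/F-PRAMEL7ΔN (0.38, adjusted p = 0.0151) and was lower in ESC + H/F-PRAMEL7WT than in ESC + H/F-PRAMEL7ΔN (-0.43, adjusted p = 0.00935). *Dnmt1*, *Trim28*, *Dnmt3l* and *Ctcf* passed in neither line against parental ESCs. Of the 10 genes 1 was lower and 2 higher in ESC + H/F-PRAMEL7WT (all tested genes, 16.3% and 8.71%), and 2 lower and 2 higher in ESC + H/F-PRAMEL7ΔN (13.6% and 6.25%).

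Calls in the lists of relatives and partners, neighbours included, have as background 16.3% lower and 8.71% higher in ESC + H/F-PRAMEL7WT. In ESC + H/F-PRAMEL7ΔN the background was 13.6% and 6.25%. Of 9 tested in the fidgetin list, 1 was lower (*Fignl1*) and 1 higher in the former line, and 0 and 1 in the latter. The 8 of the COBL list gave 0 and 0, then 1 and 0. The 5 tested amine genes gave 1 and 0, then 0 and 0, and the 2 of the Ikaros family gave none. In the fidgetin family *Fignl2* rose in both derived lines (1.11 and 0.99, adjusted p = 0.00317 and 0.00486 from limma), from 5.79 to 13.5 and 12.3 CPM, and *Fign* and *Spidr* passed in neither. In the COBL family and its partners no gene passed in ESC + H/F-PRAMEL7WT, and *Spire1*, another actin nucleator, was lower in ESC + H/F-PRAMEL7ΔN (-0.49, adjusted p = 0.0161). *Cobll1*, the nearest relative of *Cobl*, had 0.22 in ESC + H/F-PRAMEL7WT and 0.02 in ESC + H/F-PRAMEL7ΔN and passed in neither. Of the genes for amine synthesis and breakdown, *Maoa* fell in ESC + H/F-PRAMEL7WT (-0.37, adjusted p = 0.0393), and *Th*, *Tph1* and *Tph2*, whose products make the substrates of DDC, were below 1 CPM in every library. *Ikzf3* and *Ikzf4* had -0.34 and -0.60 in ESC + H/F-PRAMEL7WT and passed in neither line.

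The counts over these lists changed when single libraries were left out, and a line left with 1 library gives a weaker test. ESC + H/F-PRAMEL7WT had 5 genes lower and 3 higher without its first or its second library, 9 were higher without the second parental library, and 10 were lower without either library of ESC + H/F-PRAMEL7ΔN. ESC + H/F-PRAMEL7ΔN had 5 lower without its first or second library, with 0 and 1 higher, and 15 and 12 were lower without the first or second parental library. With the derived lines compared directly, 0 were lower without the first or second library of ESC + H/F-PRAMEL7WT and 1 without the first or second of ESC + H/F-PRAMEL7ΔN, while 9 were higher without the first or second parental library and 2 without the second library of either derived line.

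To find genes with a pattern like that of *Grb10*, 46 tested genes with a mean of at least 10 CPM and a range of at least 2 on the log2 scale were ranked by the Pearson correlation of log2(CPM + 1) with *Grb10* over the 6 libraries, which share their depth and scaling. The most similar were *Lemd1* (r = 0.912), *Abca1* (0.822), *Emp1* (0.777), *Kif1a* (0.675) and *Dnah8* (0.605), none of them on chromosome 11. *Lemd1*, a LEM domain gene, had 11.2 and 9.44 CPM in the parental libraries, 2.83 and 2.97 in ESC + H/F-PRAMEL7WT, and 24.0 and 23.2 in ESC + H/F-PRAMEL7ΔN. *Abca1*, a cholesterol exporter, had 20.3 and 15.7, 8.91 and 8.20, and 48.9 and 45.3 CPM. *Lemd1*, *Abca1* and *Emp1* were lowest in ESC + H/F-PRAMEL7WT and, unlike *Grb10*, above the parental libraries in ESC + H/F-PRAMEL7ΔN. *Kif1a*, a kinesin, and *Dnah8*, a dynein heavy chain, were low in both derived lines. *Dnah8* had the largest fall of these 5 in ESC + H/F-PRAMEL7WT, -2.42 against -4.32 for *Grb10*.

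**Figure D5:**
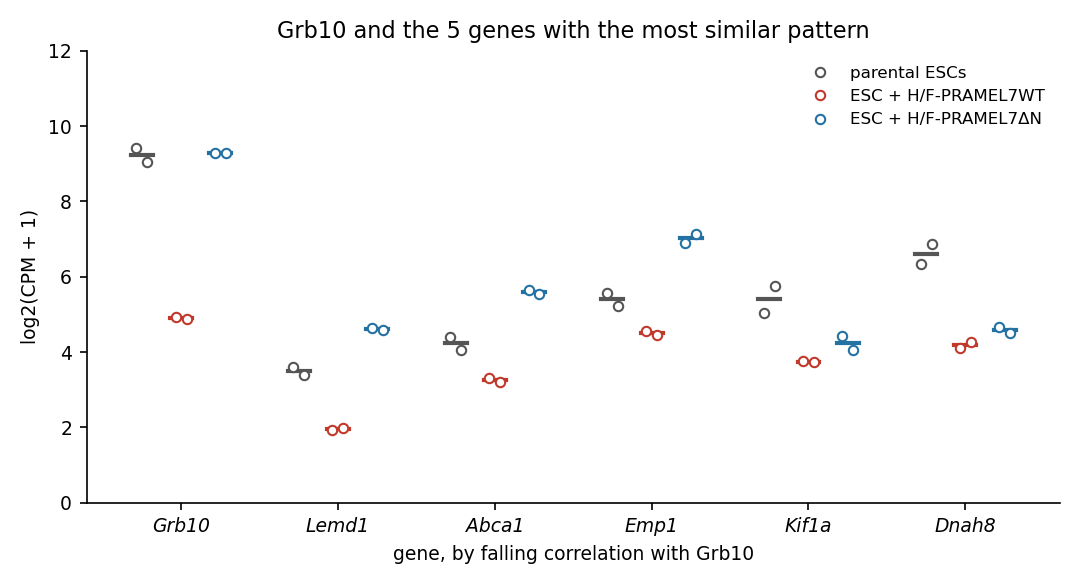
Level in each library as log2(CPM + 1) of *Grb10* and the 5 genes with the highest correlation with it over 6 libraries, ordered from left to right by falling r (0.912 to 0.605). Open circles are libraries and bars are means of 2 libraries. In *Lemd1*, *Abca1* and *Emp1* the blue circles of ESC + H/F-PRAMEL7ΔN stand above the grey parental ones, and in *Kif1a* and *Dnah8* below them.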

How the data were processed

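Polyadenylated RNA from 2 dishes of each of 3 ESC lines was sequenced single-end with a kit that does not mark strand. The RPKM values deposited by the authors came from reads that had been cleared of ribosomal RNA (SortMeRNA), trimmed (Trimmomatic) and aligned to mm10 (STAR). The submitters' processing notes also name Bowtie2 2.3.4.3 and Subread 1.4.6-p4. The methods state triplicates, and 2 libraries per line were used here. The 6 ChIP-seq samples and the authors' tables of fold changes and p-values were not used here.

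Of 50978 rows, 3 kinds were left out, namely 176 with a repeated or date-like name, 2796 that GENCODE vM21 does not hold and 66 that it holds more than once. The length in the RPKM was found to be the gene span, because the product of value and span came within 0.1 of a whole number of reads in 98.3 to 98.5% of cases (up to 20 reads). Values were multiplied by span and by one constant, giving CPM with the authors' scaling kept. A gene entered the test if 2 or more libraries exceeded 1 CPM. The test was limma 3.58.1 on log2(CPM + 1) (R 4.3.3, mean-variance trend, all 6 libraries in one fit, Benjamini-Hochberg adjustment). On simulated libraries for the comparison of ESC + H/F-PRAMEL7WT with parental ESCs (12662 genes), 100% of 200 changed genes were recovered at a log2 change of 1 and of 2, and 11 unchanged genes were called. The simulated spread was one fixed value for all genes, not estimated from the real libraries, and genes of very low level were not changed. That recovery checks the procedure and does not give the power of the real libraries. Plots were drawn with matplotlib 3.10.9 and tables made with pandas 2.3.3 and numpy 2.4.6, with intervals from scipy 1.17.1, all under python 3.11.15.

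The genes, lists and tests were chosen with earlier results of these data known. Genes named were the 5 described here, the 5 tested genes nearest to *Grb10* on each side, other called genes within 5 Mb, the silent protein-coding genes between them, the 5 most similar to *Grb10*, and members of the lists that passed (up to 10 per comparison by size) with the nearest relatives of each gene. Some list genes are counted but not reported here by name. *Met*, *Uhrf1*, *Map2k1*, *Ywhae*, *Maoa*, other list members that did not pass, and single markers were named after their values were seen. The alternatives were other pseudocounts (0.1 and 5), filters (none and 10 CPM), scalings, fits, call rules and windows, a replicate block, centring on chromosome 11 and leaving out each library.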

Additional observations from a re-analysis of the deposited data

Results flagged for a closer look

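For 4 genes within 5 Mb of *Grb10*, the difference from parental ESCs was not the same in both derived lines by a test of that difference (limma, adjusted p under 0.05). *Cobl* was lower in ESC + H/F-PRAMEL7WT than in ESC + H/F-PRAMEL7ΔN by a log2 difference of -0.29. *Tns3* (-0.66) and *Hus1* (-0.42) were lower as well, and *Upp1* was higher (0.44). Of the 15 tested genes within 5 Mb, 3 were thus lower (20.0%) and 1 higher (6.67%), beside 9.45% and 10.9% of all tested genes. *Grb10* differed by -4.37 between the same lines and was chosen for it. Single libraries were not screened, since a line had 2.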

How the results depend on the processing

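Counts are given as genes lower and genes higher, for genes within 5 Mb of *Grb10*, for chromosome 11 and for the family and partner lists. WT and ΔN stand for ESC + H/F-PRAMEL7WT and ESC + H/F-PRAMEL7ΔN, each against parental ESCs unless both are named.

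The replicate numbers did not pair the samples, with correlations of the deviations of same-numbered libraries of 0.207, -0.25 and -0.103 over 12914 genes. With the number as a replicate block *Fignl1* kept its call in WT (-0.44, adjusted p = 0.0474 from limma), *Cobl* kept its call between the derived lines (-0.29, adjusted p = 0.0452), and 454 genes of chromosome 11 were lower in WT and 347 in ΔN. The block changed no other call of a gene described here and moved no count by over 1.5 times. Upper-quartile scaling kept every call and count on its side as well. RPKM without conversion gave no value for *Grb10* or its neighbours, since none exceeded 1 in 2 libraries.

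Without a filter, *Fignl1* in WT (-0.44, adjusted p = 0.0978) and *Cobl* between the derived lines (-0.29, adjusted p = 0.0686) lost their calls. The counts in WT were then 3 and 1 within 5 Mb, 328 and 22 on chromosome 11 and 8 lower in the lists. For ΔN they were 250 and 16 on chromosome 11, and between the derived lines 51 and 39 there and 5 lower in the lists. More genes were tested in that setting.

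Without the trend in limma, *Fignl1* in WT (-0.44, adjusted p = 0.0748) and *Cobl* between the derived lines (-0.29, adjusted p = 0.0872) lost their calls too, with 1 gene higher within 5 Mb in WT, 3 list genes higher in ΔN and 5 lower between the derived lines. With median-ratio scaling *Fignl1* in WT was at -0.36 (adjusted p = 0.0673), the lists gave 8 and 8 in WT, and the medians were -0.091 within 5 Mb and -0.28 on chromosome 11 in WT and -0.26 on chromosome 11 in ΔN. That scaling moved the median of all genes from -0.078 to 0.0030 in WT. With quantile normalization the medians in WT were -0.066 within 5 Mb and -0.30 on chromosome 11, and -0.28 on chromosome 11 in ΔN.

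Centred on the median of chromosome 11, *Grb10* was at -3.96 in WT, 0.39 in ΔN and -4.35 between the derived lines. *Fignl1* was at -0.082 in WT without a call, and *Cobl* passed in ΔN (0.45) and not between the derived lines (-0.27, adjusted p = 0.051). Reversed signs were those of *Ddc* (0.23) and *Cobl* (0.18) in WT and of *Fignl1* (0.13) and *Ddc* (0.040) in ΔN. The counts were 2 and 4 in WT and 5 higher in ΔN within 5 Mb, with medians of 0.18 and 0.21. On chromosome 11 they were 143 and 157 in WT and 114 and 119 in ΔN, with medians of 0.0035, 0.0050 and, between the derived lines, -0.016. In the lists they were 5 and 28 in WT and 5 and 25 in ΔN. This centring moves the median of all genes to 0.28 in both lines by construction.

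With RPKM without conversion the counts in WT were 0 and 1 within 5 Mb, 77 and 6 on chromosome 11 and 0 and 1 in the lists, with medians of 0.26 and -0.19. In ΔN they were 0 and 0, 71 and 3, and 0 and 2, with a chromosome median of -0.215. Between the derived lines 0 genes were lower within 5 Mb, 6 and 9 were called on chromosome 11 and 1 and 0 in the lists, with medians of 0.36 and 0.0098. Fewer genes passed that filter.

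With a limit of 0.58 on the absolute log2 difference, *Fignl1* in WT (-0.44) and *Cobl* between the derived lines (-0.29) were not called. With the unadjusted p the counts in WT were then 3 and 1 within 5 Mb, 276 and 20 on chromosome 11 and 8 lower in the lists. In ΔN they were 2 and 0, 204 lower, and 1 higher, and between the derived lines 1 and 0, 49 and 46, and 2 lower. With the adjusted p they were 3 and 1, 268 and 20, and 7 lower in WT. In ΔN they were 0 higher, 187 lower and 1 higher, and between the derived lines 1 and 0, 46 and 43, and 2 lower.

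A window of 2 Mb gave 1 and 0 in WT, 0 and 0 in ΔN, and 1 and 0 between the derived lines. A window of 10 Mb gave 49 and 4 with a median of -0.34 in WT, 42 lower with -0.32 in ΔN, and 10 and 12 with 0.0067 between the derived lines. A pseudocount of 5 gave medians of -0.125 within 5 Mb and -0.28 on chromosome 11 in WT and -0.27 there in ΔN. *Grb10* between the derived lines was at -4.20 with a pseudocount of 5, at -4.41 with 0.1 and at -4.43 with voom on whole reads. A filter of 10 CPM gave a median of -0.31 within 5 Mb in WT. With the 2 lines compared alone in the fit, 271 genes of chromosome 11 were lower in ΔN, and between the derived lines *Fignl1* passed (-0.23, adjusted p = 0.0379) with 194 and 157 genes on chromosome 11 and 9 list genes higher.

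With each library left out in turn, a lone library of a line was assumed to vary like the others. The ranges for *Grb10* were -4.49 to -4.14 in WT, -0.12 to 0.23 in ΔN and -4.40 to -4.35 between the derived lines. For *Fignl1* they were -0.62 to -0.27, -0.385 to -0.035 and -0.33 to -0.14, for *Ddc* -0.335 to 0.066, -0.50 to -0.095 and 0.046 to 0.28, and for *Cobl* -0.22 to -0.14, 0.070 to 0.16 and -0.31 to -0.28. Within 5 Mb the ranges were 2 to 6 lower and 0 to 2 higher in WT, 0 to 3 and 0 to 1 in ΔN, and 1 to 4 and 0 to 1 between the derived lines, with medians from -0.32 to -0.125, -0.129 to -0.065 and -0.137 to 0.046. On chromosome 11 they were 144 to 580 and 7 to 54 in WT, 134 to 534 and 7 to 42 in ΔN, and 22 to 196 and 19 to 156 between the derived lines, with medians from -0.384 to -0.342, -0.343 to -0.312 and -0.046 to -0.023. In the lists they were 5 to 18 and 3 to 9 in WT, 5 to 15 and 0 to 7 in ΔN, and 0 to 12 and 2 to 9 between the derived lines. Where no setting is named as the reason, the cause was not tested.

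Depth limits *Ikzf1*, at most 18 reads per library. With 2 libraries per line and one possible clone each, small differences in *Ddc* and *Cobl* are bounded by their intervals and not shown to be absent.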
